A study of Mus musculus with 29 samples.

Results

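The Hox genes of the mouse were described here in cultures of crude stromal vascular fraction (SVF), the cells other than adipocytes that are released when fat is digested. All 39 protein-coding genes of clusters Hoxa, Hoxb, Hoxc and Hoxd were members, chosen by gene symbol among the 56953 genes of the count table, and no measured value entered the choice. SVF of C57BL6/J mice was isolated with collagenase and Dispase from inguinal (iWAT) or perigonadal white adipose tissue (pgWAT) and grown for 4 days in 96-well plates in PM1 medium with 1 nM basic FGF, which all wells shared. Each of the 29 libraries was made by Smart-seq3 from bulk RNA of a culture and carries a depot and a sex label: 9 iWAT female, 10 iWAT male, 6 pgWAT female and 4 pgWAT male. The study describes adult mice and calls these wells technical replicates from a few independent experiments, and the labels tie no well to an experiment or animal. All n here count wells, and p-values measure the spread between wells, not between animals. Crude SVF is a mixture, and in bulk RNA fewer cells of a type cannot be told apart from less RNA per cell. Library numbers within a group follow accession order and pair nothing.

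Hox genes encode homeodomain transcription factors that give cells a position along the body axis. Within a cluster the genes lie in the order in which they are used from head to tail, so low paralog numbers mark anterior and high numbers posterior positions. Genes with the same number in different clusters are paralogs. Hox proteins bind DNA together with cofactors of the TALE class (Pbx, Meis and Pknox proteins), Polycomb complexes keep unused Hox genes silent, and retinoic acid turns on Hox genes of the anterior end. Fibroblasts and fat precursors of adult animals retain a Hox pattern of the place they come from, also in culture.

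Sex-linked transcripts went against several pgWAT labels, so "labelled male" and "labelled female" are used for pgWAT throughout. All 19 iWAT libraries matched their labels in Xist, the RNA of the inactive X chromosome, and in the counts summed over Kdm5d, Uty, Eif2s3y and Ddx3y of the Y chromosome. In pgWAT, labelled male 2 and 4 had 24 and 60 Xist counts with 1 and 0 Y-linked counts. Labelled female 2 and 3 had 0 Xist counts with 23 and 26 Y-linked counts, and labelled female 1 had both, 7 and 10. The tests of Hox genes that rest on pgWAT are therefore given with all libraries and without these 5, while levels and ratios cover all libraries unless stated. Library totals ranged from 315316 to 1102234 counts, so that 3 counts, the limit a count of 0 allows, came to 2.72 to 9.51 per 1000000 counts. Levels are given as CPM, counts scaled to a library size of 1000000 after TMM normalization. Summed stromal markers (Pdgfra, Col1a1, Dcn, Pdgfrb, Ly6a and Cd34) were at 2963 to 5515 CPM in iWAT and 3729 to 9977 CPM in pgWAT. In pgWAT labelled male 1 and 3 they came to 4052 and 3729 CPM, below the 7204 and 7757 CPM of summed macrophage markers. Counting intervals and limits cover counting error only.

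Paralogs share homeodomain sequence, so the overlap of their transcripts in GRCm38 was measured as the share of runs of 31 bases that occur in another gene. Runs were compared on the transcript strand only, so an antisense overlap, as of Hoxa11 with its antisense RNA Hoxa11os, could not be found. None of the runs of 31 bases in Hoxa10 or Hoxa11 occurred in another gene, while 7.34% of those of Hoxc10 occurred also in Hoxc5. Hoxd11 shared 10.5% of its runs with other genes, among them Gm28309, and Hoxd3 and Hoxd4 shared 52.6% and 37.0% with genes outside the clusters, mainly Gm28230, so the counts of these last genes are uncertain.

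Promoters, 250 bases before to 50 after a start site, are given from the RefSeq table of GRCm38.p6 for 3 members that were higher in pgWAT. Hoxd11 and Hoxd10 are neighbours and had counts in the same 6 pgWAT libraries. Capitals mark a match, on either strand, to TGATNNAT, the motif that Pbx and Hox proteins bind together.
Hoxd11, chr2:74682073-74682372, plus strand: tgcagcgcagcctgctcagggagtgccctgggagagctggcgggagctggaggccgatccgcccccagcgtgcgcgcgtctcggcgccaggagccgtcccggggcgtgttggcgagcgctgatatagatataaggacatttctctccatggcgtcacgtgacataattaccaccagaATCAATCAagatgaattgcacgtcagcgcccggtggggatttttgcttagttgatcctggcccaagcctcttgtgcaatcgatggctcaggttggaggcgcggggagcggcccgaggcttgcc
Hoxd10, chr2:74691641-74691940, plus strand: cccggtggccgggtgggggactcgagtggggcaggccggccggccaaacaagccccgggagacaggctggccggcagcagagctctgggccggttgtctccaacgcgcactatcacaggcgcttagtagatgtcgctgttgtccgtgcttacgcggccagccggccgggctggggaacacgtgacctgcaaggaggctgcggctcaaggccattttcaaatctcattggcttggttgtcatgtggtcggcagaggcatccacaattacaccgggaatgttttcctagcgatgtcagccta
Hoxa7, chr6:52218524-52218823, minus strand: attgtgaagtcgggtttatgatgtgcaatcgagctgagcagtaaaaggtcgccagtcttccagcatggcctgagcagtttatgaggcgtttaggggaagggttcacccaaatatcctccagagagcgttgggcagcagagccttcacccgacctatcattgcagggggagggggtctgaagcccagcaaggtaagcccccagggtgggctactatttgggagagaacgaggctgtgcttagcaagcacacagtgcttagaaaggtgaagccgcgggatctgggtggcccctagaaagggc
The match in Hoxd11 began 73 bases before the start site, and Hoxd10 and Hoxa7 held none in this window. A second Hoxd11 promoter of the table, chr2:74679308-74679607, also held none. Of the 24 promoters found for 22 Hox genes, 4 held the motif (Hoxa2, Hoxb1, Hoxb8 and this one of Hoxd11), or 16.7% against 8.85% of all 32851 promoters of the same length. Hox promoters had a median of 14.5 CpG dinucleotides against 7 in all promoters. Hoxc10 had no entry.

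Hox transcripts were scarce and their total was similar in both depots. They came to 2627 counts in all, 0.0144% of the counts, with 142 CPM in pooled iWAT and 146 CPM in pooled pgWAT. Per 10000 counts a library held 1.47 ± 0.207 Hox counts in iWAT female (SD, n = 9) and 1.37 ± 0.207 in iWAT male (n = 10). The labelled pgWAT groups held 1.45 ± 0.226 (female, n = 6) and 1.42 ± 0.487 (male, n = 4). What differed was the composition. Cluster C gave 59.1% of Hox counts in iWAT and 33.5% in pgWAT, cluster A 18.0% and 35.9%, cluster B 20.9% and 19.6%, and cluster D 2.00% and 11.1%. Without the 5 libraries the pgWAT shares were 37.9% (C), 33.4% (A), 19.8% (B) and 8.79% (D). The lower share of cluster C in pgWAT lay largely in 1 gene. Hoxc10 gave 769 of the 1062 counts of cluster C in iWAT and 116 of 278 in pgWAT. Paralogs 1 to 8 of cluster C stood at 17.8 pooled CPM in iWAT and 24.1 in pgWAT. Paralogs 1 to 8 summed to 57.5 ± 12.5 CPM in iWAT (SD, n = 19) and 88.4 ± 22 CPM in pgWAT (n = 10), and paralogs 9 to 13 to 82.7 ± 14.95 and 57.1 ± 46.7 CPM. The SD of the last value was the widest because single pgWAT libraries ranged from 1.74 to 119 CPM. The iWAT libraries stayed between 47.5 and 106 CPM. Without Hoxc10, paralogs 9 to 13 summed to 23.6 ± 7.82 CPM in iWAT and 38.2 ± 30.5 CPM in pgWAT. The lower posterior mean in pgWAT thus lay in Hoxc10, and the other posterior members together had a higher mean there. Without Hoxc10, single libraries ranged from 11.3 to 37.0 CPM in iWAT and from 1.74 to 74.3 CPM in pgWAT.

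**Figure D1:**
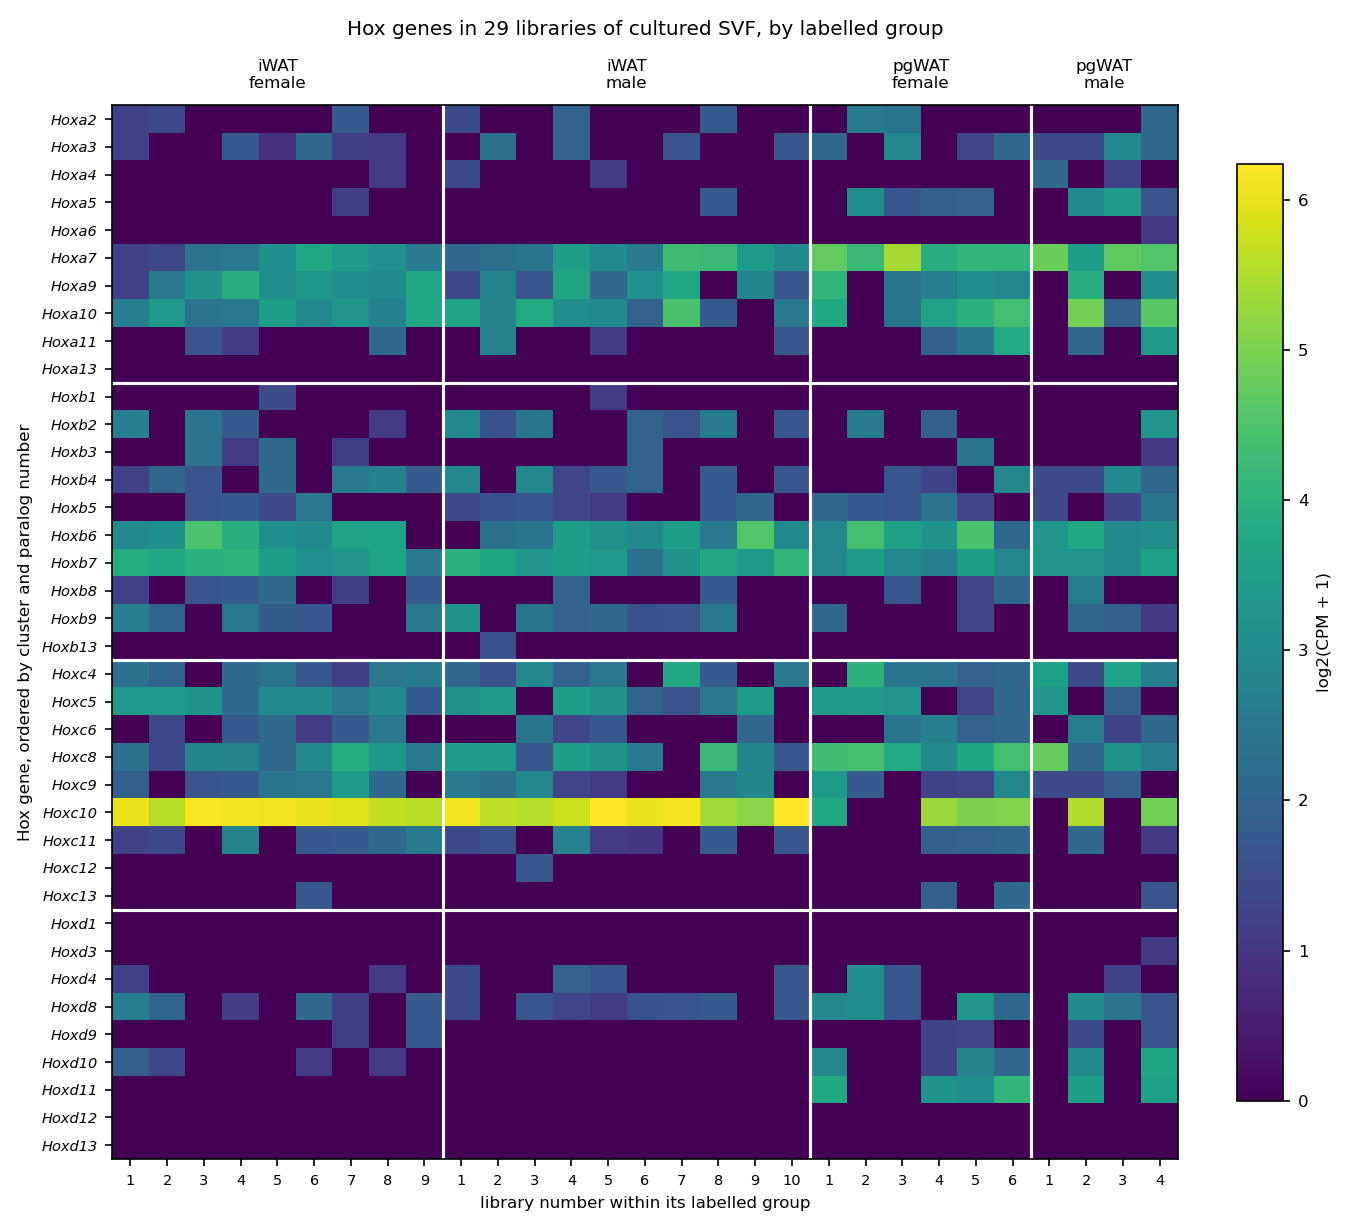
Heatmap of log2(CPM + 1) for Hox genes (rows, by cluster and paralog number) in the 29 libraries (columns, by labelled group). Hoxc10 is the brightest row in all 19 iWAT libraries and is at 0 in 4 pgWAT libraries, the same 4 in which Hoxd11 is at 0.

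Of the 39 genes, 10 had at least 50 counts over all libraries, 12 had fewer than 10, and 4 (Hoxa13, Hoxd1, Hoxd12 and Hoxd13) had 0. Per kilobase of transcript, taking the median annotated length of each gene, pooled iWAT was led by Hoxc10 at 31.9 CPM per kb. Hoxa7 (9.95), Hoxb7 (8.16), Hoxb6 (5.21), Hoxa10 (3.72), Hoxc8 (3.56) and Hoxa9 (3.38) followed on the same scale. Pooled pgWAT was led by Hoxa7 at 29.3 CPM per kb, ahead of Hoxc10 at 10.7. This lead depended on the lengths, 725 bases for Hoxa7 and 1909 for Hoxc10. Without them Hoxa7 stood at 21.3 and Hoxc10 at 20.4 CPM in pooled pgWAT. By library, again per kilobase, Hoxc10 led in 18 of 19 of iWAT and in 2 of 10 of pgWAT, and Hoxa7 in the other 1 and 8. Hoxb6 (6.42), Hoxb7 (6.401), Hoxc8 (6.31), Hoxa10 (6.24) and Hoxd11 (5.70) then lay too close together to be ordered. Summed by paralog number, group 10 stood at 68.8 CPM in iWAT and 36.9 CPM in pgWAT, group 7 at 17.7 and 29.5 CPM, and group 11 at 2.85 and 11.3 CPM. Within group 10, Hoxc10 stood at 60.9 and 20.4 pooled CPM in iWAT and pgWAT, Hoxa10 at 7.45 and 12.5, and Hoxd10 at 0.396 and 4.04. Groups 12 and 13 held at most 5 counts in either depot.

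**Figure D2:**
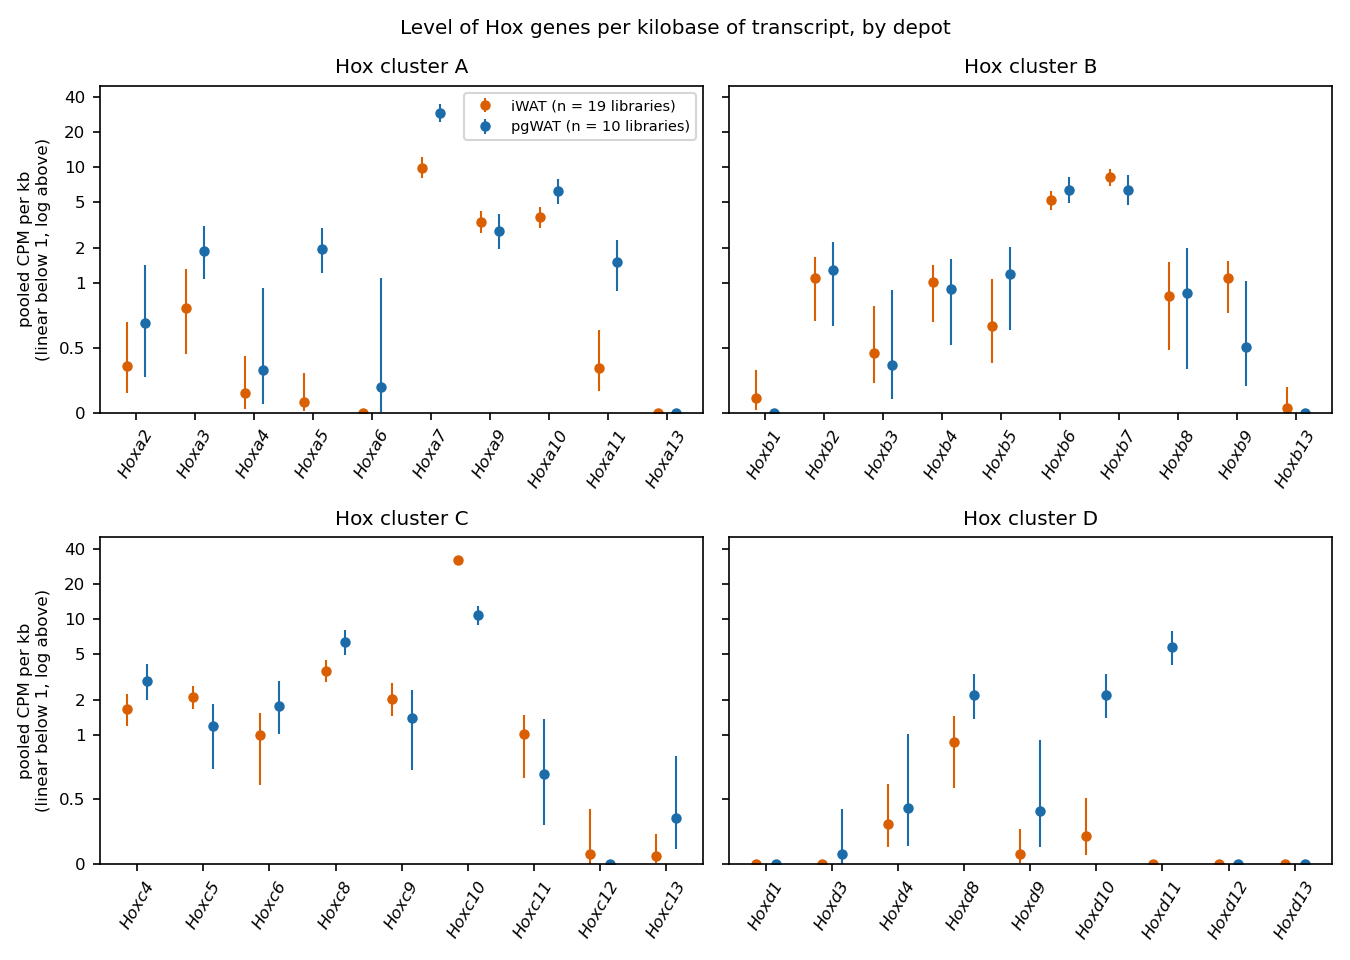
Pooled level of Hox genes in CPM per kilobase of transcript (logarithmic axis that is linear near 0) in iWAT and pgWAT, by cluster, with exact 95% Poisson intervals for counting error only and no bar for genes at 0. Hoxc10 leads in iWAT at 31.9 and Hoxa7 in pgWAT at 29.3.

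The depots were compared with edgeR's quasi-likelihood test over 8853 genes, of which 5 were Hox genes (Hoxa7, Hoxa10, Hoxb6, Hoxc8 and Hoxc10). Of all genes tested, 37.6% passed an adjusted p of 0.05, 19.8% higher and 17.8% lower in pgWAT. Of the 5 Hox genes, 2 passed: Hoxa7 was higher and Hoxc10 lower in pgWAT. The median log2 fold change was 0.68 over the 5 and 0.01 over all genes.

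Hoxc10, a posterior gene of cluster C that patterns the lumbar region and hindlimb, fell in pgWAT. In iWAT female it ranged from 46.3 CPM over a median of 65.8 to 71.7 (mean 60.5 ± 10.1 SD, n = 9). In iWAT male it ranged from 34.9 over 59.7 to 74.5 CPM (57.7 ± 14.8, n = 10). The range of the male libraries thus contained that of the female libraries. In pgWAT the libraries labelled female 1 to 6 had 12.8, 0, 0, 38.7, 31.1 and 32.5 CPM, and those labelled male 1 to 4 had 0, 44.9, 0 and 28.9. Of these 10, 8 were below the lowest iWAT library and 4 were at 0. The log2 fold change, pgWAT minus iWAT, was -1.59 (SE 0.372, edgeR adjusted p = 0.00129). Summed over wells, 769 counts in iWAT against 116 in pgWAT gave a ratio of CPM of 2.99 (exact 95% interval 2.45 to 3.66).

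Hoxa7, a gene of the thoracic part of the series, rose in pgWAT. It ranged from 1.35 over a median of 4.94 to 12.5 CPM in iWAT female (6.09 ± 3.73 SD, n = 9) and from 3.29 over 6.84 to 18.7 CPM in iWAT male (8.63 ± 5.55, n = 10). The pgWAT libraries labelled female 1 to 6 had 25.6, 17.5, 41.2, 13.8, 16.3 and 16.3 CPM, and those labelled male 1 to 4 had 27.8, 10.4, 24.99 and 22.5. All 10 lay above the iWAT median of 6.77 CPM and 5 of them above the highest iWAT library. The log2 fold change was 1.54 (SE 0.281, edgeR adjusted p = 2.8e-05), and the ratio of summed CPM 2.95 (2.23 to 3.92). Its paralog Hoxb7, below the filter of the test, was at 11 ± 3.43 CPM in iWAT female, 10.5 ± 3.44 in iWAT male, 7.55 ± 2.07 in pgWAT labelled female and 8.74 ± 1.54 in pgWAT labelled male, and its depot ratio of 0.784 had an interval of 0.550 to 1.101.

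The other members past the filter did not pass the depot test. Hoxc8, a thoracic gene of cluster C, had a log2 fold change of 0.85 (SE 0.352, edgeR adjusted p = 0.0528). It ranged from 0 to 17.8 CPM in iWAT, with 6.19 ± 3.52 in female and 7.14 ± 5.19 in male libraries. In pgWAT it stood at 19.2, 19.99, 13, 6.92, 11.8 and 19.5 CPM in labelled female and 26.0, 3.46, 8.33 and 5.35 CPM in labelled male libraries, so that the depots overlapped. DESeq2 called Hoxc8 and Hoxa7 and Hoxc10, whereas limma-voom called the same 2 genes as edgeR. The shares of all genes that these tools called between depots are not given here, so the call of Hoxc8 has no background beside it. Hoxa10, a posterior paralog of Hoxc10 with roles in the uterus and the lumbar spine, had a log2 fold change of 0.68 (SE 0.396, edgeR adjusted p = 0.183). Its iWAT levels were 7.49 ± 2.79 CPM (female, n = 9) and 7.54 ± 6.11 CPM (male, n = 10). Its pgWAT levels were 12.8, 0, 4.34, 11.1, 14.8 and 19.5 CPM in labelled female and 0, 29.4, 2.78 and 23.6 CPM in labelled male libraries, a spread from 0 to above every iWAT library. Hoxb6 had a log2 fold change of 0.28 (SE 0.345, edgeR adjusted p = 0.566) and spanned 0 to 22.2 CPM in iWAT and 3.25 to 20.7 CPM in pgWAT. Without the 5 libraries none of the 3 passed either, with log2 fold changes of 1.04 for Hoxc8, -0.63 for Hoxa10 and 0.16 for Hoxb6 (edgeR adjusted p = 0.0649, 0.439 and 0.840).

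**Figure D3:**
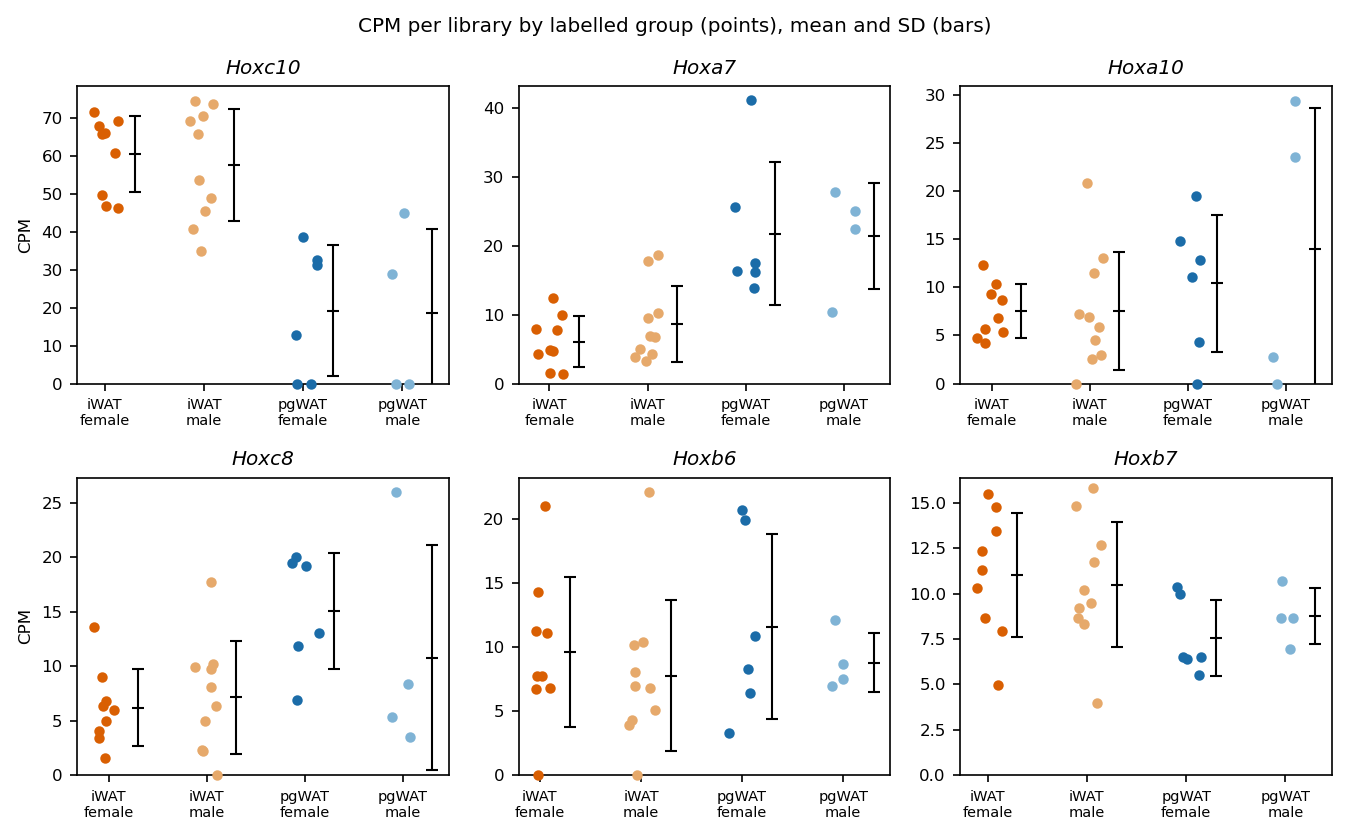
CPM of Hoxc10, Hoxa7, Hoxa10, Hoxc8, Hoxb6 and Hoxb7 in each library (points) by labelled group, with the mean and SD (bars, cut at 0). For Hoxc10 both iWAT groups lie between 34.9 and 74.5 CPM and the pgWAT points spread from 0 to 44.9, while Hoxa7 points of pgWAT lie between 10.4 and 41.2 CPM.

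Of the remaining members with 50 counts, Hoxa9, Hoxc4, Hoxc5 and Hoxc9 were too low in too many libraries for the test. Hoxa9, the posterior neighbour of Hoxa7, spanned 1.35 to 14.3 CPM in iWAT female and 0 to 12.5 CPM in iWAT male. It stood at 16, 0, 4.34, 5.53, 7.41 and 6.51 CPM in pgWAT labelled female and at 0, 13.8, 0 and 7.50 in pgWAT labelled male. The pgWAT libraries at 0 for Hoxa9 were 3 of the 4 that were at 0 for Hoxc10. Hoxc5 ranged up to 10.2 CPM in iWAT and stood at 9.60, 9.997, 8.68, 0, 1.48 and 3.25 CPM in labelled female and 8.68, 0, 2.78 and 0 CPM in labelled male pgWAT. Hoxc4 stood at 0, 15, 4.34, 4.15, 2.96 and 3.25 CPM in labelled female and 10.4, 1.73, 11.1 and 5.35 CPM in labelled male pgWAT, against 0 to 12.5 CPM in iWAT. Both depots overlapped for these anterior genes of cluster C. Hoxc9 was low everywhere, from 0 to 9.91 CPM in iWAT and from 0 to 9.60 CPM in pgWAT.

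With a filter of 10 summed counts, 27 Hox genes entered the depot test, 26.2% of all genes passed it, and 6 Hox genes did. Hoxa7 and Hoxc10 were joined by Hoxa5, Hoxa11, Hoxd10 and Hoxd11, all 4 higher in pgWAT and all chosen for mention after their values were seen. Hoxd11, which patterns the forearm, kidney and sacral spine, had 0 counts in all 19 iWAT libraries and 36 in pgWAT, at least 20.6-fold higher there by the exact 95% lower limit (26.6-fold against 3 counts over iWAT, which leaves out the counting error of the 36). Part of its sequence is shared with other genes, as given above, and 3 of its values were not whole, so these counts are less certain. It stood at 12.8, 0, 0, 8.30, 7.41 and 16.3 CPM in pgWAT labelled female and at 0, 10.4, 0 and 10.7 CPM in pgWAT labelled male (edgeR adjusted p = 7.88e-05). Hoxd11, Hoxd10 and Hoxa5, with 0, 5 and 2 counts in iWAT, met the filter through their pgWAT counts. Here and below, their adjusted p-values are therefore not separate support for a higher level in pgWAT. The 6 libraries with Hoxd11 counts were those with Hoxc10 counts.

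Hoxd10, the neighbour of Hoxd11, had 23 counts in pgWAT and 5 in iWAT, a ratio of 10.2 (3.80 to 34.4), with a log2 fold change of 3.14 (SE 0.707, edgeR adjusted p = 0.000589). Its pgWAT values were 6.401, 0, 0, 1.38, 5.93 and 3.25 CPM in labelled female and 0, 6.91, 0 and 11.8 CPM in labelled male libraries. Hoxa11, needed for limb, kidney and uterus, had 20 against 10 counts, a ratio of 4.44 (1.98 to 10.6) and a log2 fold change of 1.79 (edgeR adjusted p = 0.0410). Hoxa5, a gene of cervical and upper thoracic identity, followed another pattern. Its 21 pgWAT counts stood against 2 in iWAT, a ratio of 23.3 (5.70 to 205), with a log2 fold change of 3.36 (SE 0.642, edgeR adjusted p = 4.48e-05). It was at 0, 7.50, 2.17, 2.77, 2.96 and 0 CPM in pgWAT labelled female and 0, 6.91, 9.72 and 2.14 CPM in pgWAT labelled male, and so was present in some libraries without Hoxc10 and in some with it.

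Over all 39 members, the counting interval of the pgWAT to iWAT ratio lay above 1 for 10 and below 1 for 2, spanned 1 for 23, and could not be formed for the 4 with 0 counts. Such intervals were not formed for all genes, so these numbers of members cannot be read as particular to Hox genes. Members not tested are described by these intervals, which leave out the spread between wells. Hoxa3 (2.37, 1.096 to 5.14), Hoxd8 (2.32, 1.22 to 4.44) and Hoxc4 (1.75, 1.08 to 2.82) had pgWAT to iWAT ratios of CPM whose intervals lay above 1. Hoxc5 had an iWAT to pgWAT ratio of 1.76 (1.06 to 3.03), and 7.34% of the runs of Hoxc10 are shared with it. The 5 members of cluster D from paralog 9 on had 64 counts in pgWAT and 7 in iWAT, all 7 of them in iWAT female libraries. Of the members that spanned 1, Hoxb4 had 14 counts in pgWAT and 33 in iWAT, Hoxb9 7 and 34, Hoxc11 8 and 26, Hoxb2 12 and 23, Hoxc6 16 and 20, and Hoxb5 13 and 16. The anterior genes Hoxa2, Hoxa4, Hoxb1, Hoxb3, Hoxd3 and Hoxd4 had between 0 and 13 counts in either depot, as did Hoxa6, Hoxb8, Hoxd9 and the posterior genes Hoxb13, Hoxc12 and Hoxc13.

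Within each label the same 2 genes passed with all libraries. Among libraries labelled female, where 26.1% of all genes passed, Hoxa7 had a log2 fold change of 1.72 (SE 0.389, edgeR adjusted p = 0.000875) and Hoxc10 of -1.54 (SE 0.497, adjusted p = 0.0225). With well column as a factor neither passed in labelled female (edgeR adjusted p = 0.0785 and 0.102). Among libraries labelled male, where 19.9% passed, Hoxa7 had 1.37 (SE 0.405, edgeR adjusted p = 0.0135) and Hoxc10 -1.64 (SE 0.554, adjusted p = 0.0361). With the filter of 10 counts, 16.4% of genes passed in labelled female, with Hoxa5, Hoxa7 and Hoxd11 higher and Hoxc10 lower. In labelled male 12% passed, with Hoxa5, Hoxa7, Hoxd10 and Hoxd11 higher, and the edgeR adjusted p of Hoxc10 was then 0.0559. Leaving out pgWAT labelled male 1 or 3, both at 0 for Hoxc10, took its adjusted p in labelled male above the threshold as well, with log2 fold changes of -1.28 and -1.23 in edgeR.

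No Hox gene passed the test between the sexes in iWAT, where all labels matched. By edgeR, 0 of the 5 Hox genes passed and 0 had an unadjusted p under 0.05, DESeq2 and limma-voom called 0, and 2.93% of all genes passed. Hoxc10 had a log2 fold change, male minus female, of -0.05 (SE 0.361) and summed counts of 420 in female and 349 in male libraries, a female to male ratio of CPM of 1.02 (0.879 to 1.17). Without the 5 pgWAT libraries the spread was estimated from fewer libraries, 5.75% of all genes passed, and 0 of 6 Hox genes did.

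By label, no Hox gene passed in pgWAT either, but this rests on libraries whose labels and sex-linked transcripts disagree. With all 10, 1 gene (0.0113%) passed among all genes. By edgeR 0 of 5 Hox genes passed and 0 had an unadjusted p under 0.05, and DESeq2 and limma-voom called 0. Hoxc10 had a log2 fold change, labelled male minus labelled female, of -0.15 (SE 0.658, edgeR adjusted p = 0.981) and Hoxa10 of 0.45 (SE 0.623, adjusted p = 0.902). The depot by sex term passed in 0.0678% of all genes and in 0 of 5 Hox genes, with -0.10 (SE 0.745, edgeR adjusted p = 0.986) for Hoxc10.

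The libraries are therefore given one by one. Labelled male 1 and 3, with 0 Xist and 34 and 32 Y-linked counts, both had 0 counts of Hoxc10 and Hoxd11, with 0 and 2 of Hoxa10. Labelled female 2 and 3, with 0 Xist and 23 and 26 Y-linked counts, also had 0 of Hoxc10 and Hoxd11, with 0 and 2 of Hoxa10. Labelled female 4, 5 and 6, with 57, 58 and 22 Xist and 0 Y-linked counts, had 28, 21 and 10 of Hoxc10, 6, 5 and 5 of Hoxd11, and 8, 10 and 6 of Hoxa10. Labelled male 2 and 4, with 24 and 60 Xist and 1 and 0 Y-linked counts, had 26 and 27 of Hoxc10, 6 and 10 of Hoxd11, and 17 and 22 of Hoxa10. Labelled female 1, with 7 Xist and 10 Y-linked counts, had 4 counts of each of these 3 genes. In these 10 libraries counts of Hoxc10 and Hoxd11 were thus seen in all 6 with Xist counts and in none of the 4 without. This is a description of libraries side by side, with no test. By plate position, labelled female 1, 2 and 3 were in well column 10, labelled female 4, 5 and 6 and labelled male 1 in column 8, labelled male 2 and 4 in column 9 and labelled male 3 in column 7. Within column 8, Hoxc10 thus had 28, 21 and 10 counts in the labelled female libraries and 0 in labelled male 1.

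**Figure D4:**
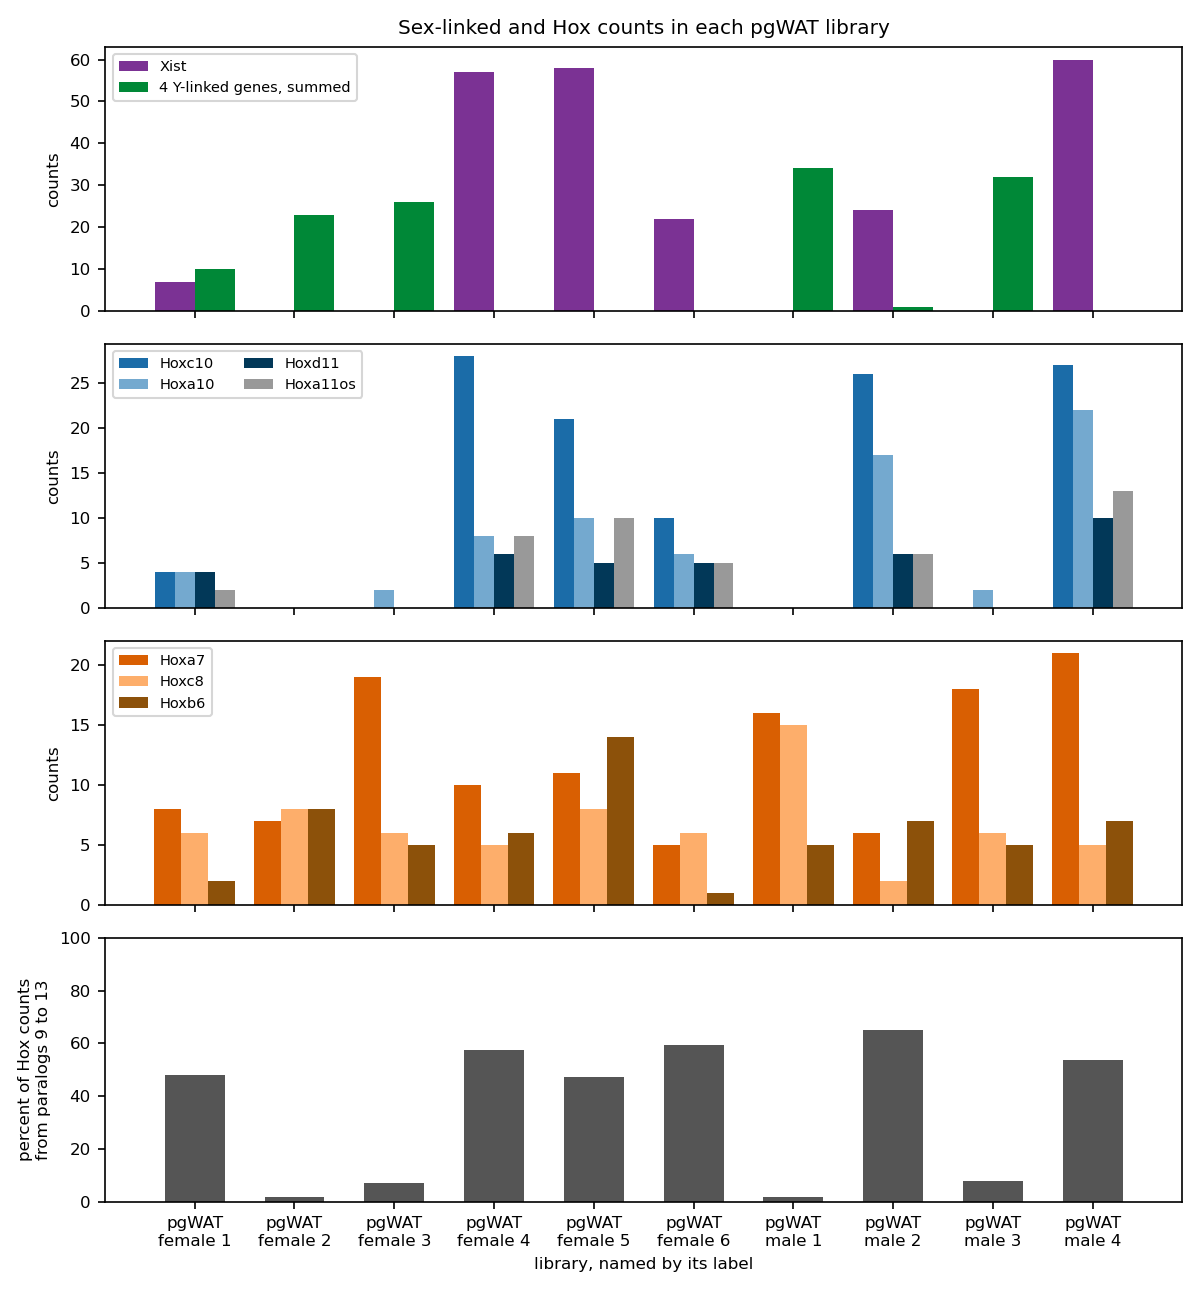
Counts in each of the 10 pgWAT libraries (x axis, by label) of Xist and the 4 summed Y-linked genes. Counts of posterior Hox genes with the noncoding RNA Hoxa11os, and of Hoxa7, Hoxc8 and Hoxb6, are shown next. The last panel gives the percentage of Hox counts that came from posterior paralogs. Hoxc10 and Hoxd11 have counts in the 6 libraries with Xist counts and 0 in labelled female 2 and 3 and labelled male 1 and 3.

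The share of Hox counts from paralogs 9 to 13 moved the same way. It was 60.3 ± 6.11% in iWAT female (SD, n = 9) and 57.8 ± 9.32% in iWAT male (n = 10), and no iWAT library was under 40.7%. In pgWAT it was 47.9, 1.92, 7.14, 57.3, 47.3 and 59.3% in labelled female 1 to 6 and 1.69, 65.1, 7.79 and 53.8% in labelled male 1 to 4. The libraries at 1.69, 1.92, 7.14 and 7.79% were those with 0 Xist counts, and the other 6 lay within the iWAT range. Paralogs 1 to 8 covered a narrower range in the same 10 libraries, 80.0, 127, 113, 56.7, 87.4 and 71.6 CPM in labelled female and 101, 64.0, 98.6 and 84.6 CPM in labelled male. The 4 libraries with scarce posterior counts held 98.6 to 127 CPM of paralogs 1 to 8, above the highest iWAT library at 81.2 CPM, as were labelled female 5 (87.4 CPM) and labelled male 4 (84.6 CPM).

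Without the 5 libraries (4 whose sex-linked transcripts went against their labels and 1 with both kinds), pgWAT kept 3 labelled female and 2 labelled male libraries. Of all genes tested, 5.54% then passed between these groups, and 2 of 6 Hox genes did, both lower in labelled male. Hoxc10 had 59 counts in the 3 female and 0 in the 2 male libraries, 34.6 CPM in female and at least 11.8-fold higher there by the exact 95% lower limit (edgeR adjusted p = 8.16e-08). Its fitted log2 fold change of -7.50 depends on the prior count. Hoxa10 had 24 counts against 2, a ratio of CPM of 9.12 (2.26 to 79.6), and a log2 fold change of -3.13 (SE 0.973, edgeR adjusted p = 0.0473).

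The other posterior members are given by counts in the 3 female and the 2 male libraries and by the exact 95% lower limit of the ratio of CPM. Hoxd11 had 16 against 0 (at least 2.93-fold higher in female), Hoxa9 11 against 0 (at least 1.91-fold) and Hoxa11 9 against 0 (at least 1.5-fold). Hoxd10 had 6 against 0 and Hoxc11 5 against 0, with lower limits of 0.895 and 0.697, so no difference lay within the counting error. Hoxc9 had 4 against 3, a ratio of 1.01 (0.171 to 6.92), and Hoxb9 1 against 2, a ratio of 0.380 (0.00644 to 7.30). With the filter of 10 counts added, an alternative chosen after seeing the data, 3.49% of all genes passed, and still Hoxa10 and Hoxc10 alone among 25 Hox genes. The edgeR adjusted p was then 0.0655 for Hoxa9 and 0.0718 for Hoxd11. Anterior members went in both directions. Hoxa7 had 26 counts in the 3 female and 34 in the 2 male libraries, a male to female ratio of CPM of 1.72 (1.00 to 2.99), and Hoxc4 had 6 and 14, a female to male ratio of 0.326 (0.103 to 0.902). The female to male ratio was 0.688 (0.350 to 1.34) for Hoxc8, 0.988 (0.400 to 2.52) for Hoxb7, 1.60 (0.720 to 3.80) for Hoxb6, 1.77 (0.405 to 10.6) for Hoxd8 and 5.32 (0.684 to 239.8) for Hoxc6, and all 5 intervals spanned 1.

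The depot difference of Hoxc10 then differed by labelled sex. The depot by sex term passed in 2.7% of all genes and for Hoxc10 alone of the 6 Hox genes (log2 difference -7.45, SE 0.941, edgeR adjusted p = 7.84e-07, again with a size set by the prior count). Between the 9 iWAT and 3 pgWAT female libraries, where 18% of all genes passed, Hoxc10 was the single Hox gene called, with a log2 fold change of -0.82 (SE 0.243, edgeR adjusted p = 0.0142) and 420 against 59 counts, a ratio of CPM of 1.77 (1.35 to 2.37). Between the 10 iWAT and 2 pgWAT male libraries, where 9.26% passed, Hoxc10 had 349 counts against 0, at least 21.1-fold higher in iWAT by the exact 95% lower limit, and Hoxa7 a log2 fold change of 1.63 (SE 0.486, edgeR adjusted p = 0.0242). Over both sexes 23.6% of all genes passed, with Hoxa7 at 1.43 (SE 0.344, edgeR adjusted p = 0.00175) and Hoxc10 lower (adjusted p = 2.52e-11). The fitted log2 fold change of Hoxc10, -4.54, averages the labelled female change with one against 0 counts and so depends on the prior count. Its summed counts, 769 in iWAT and 59 in the 5 pgWAT libraries, gave a ratio of CPM of 3.10 (2.38 to 4.11). With the filter of 10 counts 15.7% passed, and Hoxa5 (3.30) was also called higher and Hoxa9 also lower. Hoxa9 had 0 counts in both labelled male pgWAT libraries, so the size of its change is set by the prior count, and its iWAT to pgWAT ratio in female libraries was 1.22 (0.632 to 2.59). Hoxa11 (0.11, edgeR adjusted p = 0.789) was no longer called, and for Hoxd10 and Hoxd11 the averaged change could not be fitted, since both male groups were at 0. Hoxd11 had 16 counts in the 3 female pgWAT libraries against 0 in the 9 of iWAT. Hoxa10 had a pgWAT to iWAT ratio of CPM of 1.89 (1.11 to 3.13) in female libraries. These values rest on 2 and 3 pgWAT libraries.

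**Figure D5:**
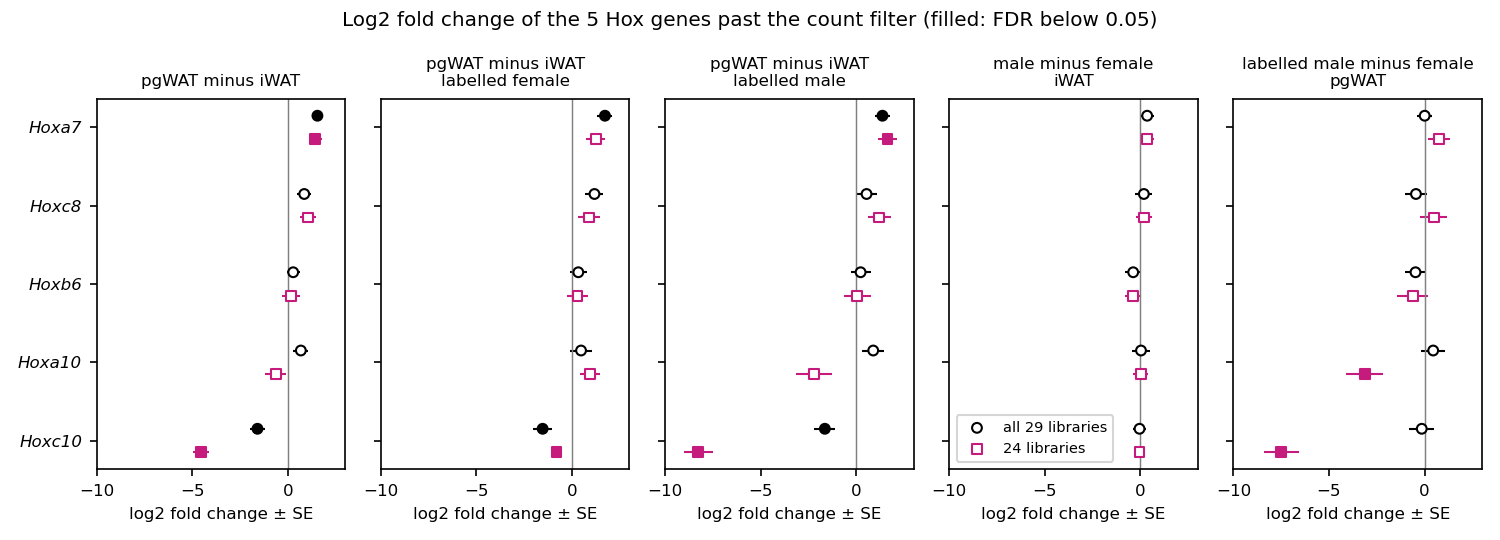
Log2 fold changes with their SE for the 5 Hox genes past the count filter in 5 comparisons, with all 29 libraries (circles) and with 24 (squares), filled where the edgeR adjusted p is below 0.05. Hoxc10 in labelled male minus female pgWAT moves from -0.15 to -7.50 when the 5 libraries are left out, and values beyond -7 have a size set by the prior count.

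Noncoding RNAs of the Hox clusters were too low to test. Of 19 listed, 17 were in the table and 0 passed the filter. Hoxa11os, the antisense RNA of the Hoxa11 locus, had 44 counts in 6 pgWAT libraries and 10 counts in 8 iWAT libraries, and is named after its values were seen. By library it had 2, 0, 0, 8, 10 and 5 counts in pgWAT labelled female and 0, 6, 0 and 13 in pgWAT labelled male, so its 4 libraries at 0 were those at 0 for Hoxc10. Hoxa11os overlaps Hoxa11 on the other strand, and reads of the pair may be confused. Hotair, the RNA between Hoxc11 and Hoxc12, had 4 counts in 2 pgWAT libraries and 0 in iWAT.

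Of the TALE cofactors, 7 of 9 were tested and 4 rose in pgWAT, where 19.8% of all genes rose, none fell, and the median log2 fold change was 0.47. Meis2 (1.13, SE 0.218) and Meis1 (1.00, SE 0.166) passed with all libraries and also without the 5, at 0.85 and 0.79 in edgeR. Meis1, a partner of posterior Hox proteins, was at 36.9 ± 13.7 CPM in iWAT (SD, n = 19) and 75.4 ± 14.6 CPM in pgWAT (n = 10). Pknox2 (0.47, edgeR adjusted p = 0.0192) did not pass without the 5 (0.10, adjusted p = 0.703). No cofactor passed between the sexes in iWAT, where 2.93% of all genes passed. None passed between the labelled sexes of pgWAT with all 10 libraries, where 1 gene passed among all genes. That comparison follows labels that sex-linked transcripts contradict, so it cannot decide whether cofactors differ by sex. Its result for cofactors without the 5 libraries is not given.

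Of 26 Polycomb and Trithorax genes, which silence or maintain Hox genes, 21 were tested, 1 rose and 4 fell in pgWAT, with a median of -0.16. This is a smaller share than the 37.6% called over all genes. Ezh2, the methyltransferase of Polycomb complex PRC2, had a log2 fold change of -0.68 (edgeR adjusted p = 0.0162), and its partner Jarid2 of -0.67. Phc2 of complex PRC1 had -0.62, the histone-binding Rbbp7 -0.25, and the chromobox gene Cbx6 0.42. None of these 5 passed without the 5 libraries, where their edgeR adjusted p lay between 0.117 and 0.263.

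Of 17 genes of retinoic acid metabolism and signalling, 10 were tested, 4 rose and 1 fell, with a median of 0.27, where 37.6% of all genes were called. Aldh1a2, an enzyme that makes retinoic acid, was at 2.77 ± 2.33 CPM in iWAT and 91.1 ± 40.9 CPM in pgWAT, a log2 fold change of 4.96 (SE 0.257). Dhrs3, a retinaldehyde reductase, had 1.93 and Aldh1a1, another such enzyme as Aldh1a2, 1.57. Crabp1, which binds retinoic acid in the cytoplasm, was at 720 ± 540 CPM in iWAT and 13.5 ± 5.81 CPM in pgWAT, a log2 fold change of -5.64 (SE 0.322). These 4 passed with and without the 5 libraries by edgeR. Between the sexes in iWAT, where 2.93% of all genes passed, 2 of the list, Crabp1 among them, were lower in male libraries.

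Markers of other cells were compared between depots as well, where 37.6% of all genes passed, 19.8% higher and 17.8% lower in pgWAT. The lists are short, so the numbers called are not a result about a cell type. In the mesothelium list 4 of 8 were tested. Upk3b (7.22), Upk1b (5.95) and Wt1 (4.88) rose and Krt19 (-1.43) fell, and the summed list spanned 1.96 to 104 CPM in iWAT, with Lrrn4 and Muc16 at 0, and 59.0 to 189 CPM in pgWAT. Macrophage markers rose in 3 of 5 tested (Lyz2 1.15, Cd68 1.13, Csf1r 0.88), and the sum of 6 spanned 614 to 2408 CPM in iWAT and 704 to 7757 CPM in pgWAT. Smooth muscle rose in 2 of 4 (Des 3.06, Acta2 0.79), from 439 to 2635 CPM in iWAT to 955 to 2143 CPM in pgWAT. Stromal markers rose in 3 of 6 (Col1a1 1.22, Dcn 0.64, Pdgfra 0.56), with Cd34 lower at -1.74. Endothelial markers rose in 1 of 4 (Kdr 1.16) and spanned 26.2 to 125 CPM in iWAT and 42.3 to 122 CPM in pgWAT. Of the urogenital duct and gonad list 2 were tested and Star (0.85) rose, with 24.7 to 71.4 CPM summed in iWAT and 35.8 to 63.2 CPM in pgWAT, where the duct and gonad genes Pax2, Pax8, Lhx1 and Foxl2 were at 0. Of the epithelial list 3 were tested and 0 passed between depots by edgeR, with sums of 0 to 1903 CPM in iWAT and 10.4 to 217 CPM in pgWAT. All 3 were lower in male iWAT, where 2.93% of all genes passed between the sexes. Without the 5 libraries 23.6% of all genes passed between depots. Upk3b, Upk1b, Wt1, Krt19, Lyz2, Cd68, Csf1r, Des, Pdgfra, Cd34 and Star then still passed, in the same direction. Acta2, Col1a1, Dcn and Kdr did not (edgeR adjusted p = 0.0878, 0.0682, 0.590 and 0.136).

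Within pgWAT the macrophage sum was 2148, 3221, 3066, 737, 704 and 807 CPM in labelled female 1 to 6 and 7204, 1117, 7757 and 1051 CPM in labelled male 1 to 4. The 4 libraries at 0 for Hoxc10 thus had 3066 to 7757 CPM and the other 6 had 704 to 2148 CPM. The mesothelium sum was 89.6, 125, 143, 189, 160 and 176 CPM in labelled female and 59.0, 86.4, 81.9 and 65.3 CPM in labelled male libraries, and did not divide them in this way. The part of these cells in the Hox differences was not tested.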

How the data were processed

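The authors trimmed reads with NGmerge, quantified them with Salmon 1.9.0 against a GRCm39 annotation, and removed libraries with few detected genes. They deposited estimated counts per gene, UMI and other reads together, and 5 Hox values were not whole, 3 of them of Hoxd11. The submitters' processing notes also name STAR 2.7.10a. Counts were rounded, and 0 columns were left unused. CPM scale each TMM-normalized library to 1000000 counts. Genes were tested with edgeR 4.0.16 (R 4.3.3; TMM, filterByExpr, robust quasi-likelihood F test, two-sided, Benjamini-Hochberg over all genes tested) in a means model of the 4 labelled groups, checked on simulated data. The SE is the log2 fold change divided by the square root of F. DESeq2 1.42.0 and limma-voom 3.58.1 were alternatives. Ratios of summed counts have exact conditional binomial 95% intervals. Some items are not reported here. Names, transcript lengths and transcript sequence came from GRCm38 annotation, so lengths may differ from those of the build used. The members and lists were chosen with earlier results of these data known. Values by library were given for Hox genes with at least 50 counts, and for other lists up to 4 called genes in each direction.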

Additional observations from a re-analysis of the deposited data

Results flagged for a closer look

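Of 44 sets of values within a group that were screened for a single library far from the rest, 5 had one. The nominal rate of the screen, about 1 in 20, assumes normally distributed values. Low counts with many values at 0 are not, so 5 of 44 cannot be set against chance. The 5 were Hoxb6 at 22.2 CPM in iWAT male 9, Hoxc4 at 12.5 CPM in iWAT male 7, Hoxc9 at 9.91 CPM in iWAT female 7, Hoxc4 at 15 CPM in pgWAT labelled female 2, and the share of paralogs 9 to 13 at 73.9% in iWAT female 9. Hoxc10 differed between the sexes in its depot effect once 5 pgWAT libraries were left out, 4 whose sex-linked transcripts go against their labels and 1 with both kinds, by -7.45 on the log2 scale (edgeR adjusted p = 7.84e-07), a size set by the prior count since the 2 remaining labelled male libraries had 0 counts.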

How the results depend on the processing

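No paired analysis was possible because the labels give wells and no replicate numbers. Hoxa7 and Hoxc10 were called between depots in each alternative in which they were tested, over log2 fold changes of 1.16 to 1.65 for Hoxa7 and -2.80 to -1.39 for Hoxc10, and -4.54 and -4.55 without the 5 libraries, sizes set by the prior count. The count of Hox genes called between depots, 2, became 6 with no filter and 6 with a filter of 10 counts, 1 with labelled sex ignored, and 4 with the 10-count filter without the 5 libraries, an alternative chosen after seeing the data. Leaving out 1 library gave 2 to 3. For several of these alternatives the share of all genes called is not given, so the counts are not a result about Hox genes alone. In libraries labelled male the count of 2 became 4 with no filter, 4 with 10 counts, 4 with both changes and 0 in well column 9 alone, and 1 to 2 with 1 library left out, 1 without labelled male 1 or 3. In libraries labelled female it became 4 with 10 counts, 0 with well column as a factor, 1 without the 5 libraries and 1 to 3 with 1 library left out, 1 without labelled female 3. Between the labelled sexes of pgWAT 0 became 2 without the 5 libraries and 2 with both changes, and the depot by sex term went from 0 to 1 and 1. The Hoxa10 difference in pgWAT, 0.45, became -0.17 by limma-voom, -1.30 with well column as a factor, -3.13 without the 5 libraries, -3.12 with both changes and -0.088 without labelled male 2, within -0.088 to 0.82 with 1 library left out. That of Hoxc10, -0.15, became 0.23 and 0.05 without labelled female 4 or 5 and 0.21 and 0.26 without labelled male 1 or 3, within -0.86 to 0.26 with 1 library left out. Over all genes, calls between the labelled sexes of pgWAT went from 1 to 16 by DESeq2, 6 by limma-voom and 527 without the 5 libraries, those of the depot by sex term from 6 to 37 by DESeq2 and 257 without the 5, and those between the sexes of iWAT from 259 to 392 by DESeq2 and 547 without the 5. The causes were not tested. Depth limits most members: 12 of 39 had fewer than 10 counts in all, and 3 counts in 1 library are worth up to 9.51 per 1000000.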
